A study of Mus musculus with 5 samples.

Results

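The genes described here encode the proteins of the cytosolic ribosome, the particle that translates messenger RNA. They were chosen by symbol alone: every gene feature named Rpl or Rps followed by a number, with an optional final a, x or l, together with Rplp0, Rplp1, Rplp2 and Rpsa. The rule took 80 of 32285 gene features, of which 49 belong to the large (60S) subunit and 31 to the small (40S) subunit. The rule itself uses no measured value, but the set was chosen with earlier results of these data known. The rule leaves out 8 related genes, among them Rps3a1, Fau and Rack1, which are given separately below.

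A ribosome holds a single copy of nearly every one of these proteins, so their messengers are made in step with each other. Many of these messengers begin with a cytosine followed by a run of pyrimidines, the terminal oligopyrimidine (TOP) motif through which growth signalling adjusts their translation. They are abundant in the cytoplasm, whereas the libraries studied here were made from nuclei. How much cytoplasmic or free RNA these libraries carry was not measured.

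Nuclei of mouse hippocampus were profiled with a droplet assay that reads RNA and open chromatin from the same nucleus. There were 5 libraries: wild type mice, 5xFAD mice, and 5xFAD mice labelled astrocyte MAGL-KO, neuron MAGL-KO and global MAGL-KO. 5xFAD is a transgenic line that carries human amyloid precursor protein and presenilin genes with familial Alzheimer mutations under the Thy1 promoter, and MAGL, encoded by Mgll, is the enzyme that breaks down the endocannabinoid 2-arachidonoylglycerol. The 3 knockout groups all carry 5xFAD, the Cre driver and the deleted part of Mgll are not given in the labels, and neither are age, sex or the number of animals. Each group was 1 library. Comparisons between groups therefore have no replicates, and their 95% intervals (exact Poisson for levels, exact conditional binomial for ratios) cover counting error only. Values below follow the order wild type, 5xFAD, astrocyte, neuron and global MAGL-KO where 5 are given.

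After filtering, 5014, 4961, 5855, 3917 and 7031 nuclei were used, with medians of 16345, 16752, 13728, 17063 and 14758 UMIs (unique molecular identifiers, counted RNA molecules). Nuclei were grouped by clustering without the 80 genes, and clusters were named from marker genes, so that "astrocyte" means an astrocyte-like cluster. Between 6.62% and 10.1% of nuclei stayed unnamed. Cell barcodes shared by any 2 libraries numbered 29 to 63. In excitatory neurons and astrocytes Mgll was no lower in any of the 3 knockout libraries than in 5xFAD. In excitatory neurons it stood at 72.2, 76.6, 95.7, 97.0 and 84.2 CPM (counts per gene scaled to the total UMIs of the class in that library), and in astrocytes at 432, 298, 430, 349 and 307 CPM, all below wild type. In microglia it was at 326, 111, 140, 156 and 97.5 CPM, so that the global label lay below 5xFAD there. Since the deleted part is not given, counts over the whole gene may not show a deletion, and these libraries are called by their labels throughout. Thy1, whose promoter drives the transgenes, was at 40.9 CPM in excitatory neurons of the wild type library and between 179 and 274 CPM in the other 4.

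RefSeq promoter sequences on GRCm38.p6 were found for 60 of the 80 genes. They show what the promoters of these genes share apart from their names. A C at the annotated start followed by 4 pyrimidines, the start of a TOP motif, was present in 12 of 60 (20.0%) and in 2.40% of the 20262 promoters of all genes. A second count took a C that follows a purine, lies within 15 bases of the start and is followed by at least 4 pyrimidines. Its shares were 50.0% and 32.9%. It does not contain the first count: Rpl38 and Rplp2 met the first rule and not the second. The letters CCGGAAG, the core bound by ETS factors, occurred on either strand of the 300 bases around the start in 25 of 60 (41.7%), against 11.1% of all promoters. ATGGCGG, a YY1 core, was found in 15.0% against 4.99%, and GGGCGG, a GC box, in 58.3% against 43.1%. TATAAA on the coding strand and CACGTG had about the shares of all promoters, 8.33% each against 8.53% and 7.77%. The stretches printed next run from 50 bases before to 20 bases from the annotated start and were picked to show both features. Capitals mark the pyrimidine run at the start in Rps6 (chr4:86857348-86857417, minus strand), Rps18 (chr17:33955646-33955715, minus strand), Rps21 (chr2:180257329-180257398, plus strand) and Rps27 (chr3:90213629-90213698, minus strand). They mark CCGGAAG, or its reverse complement, in Rps21 and in Rpl19 (chr11:98026660-98026729, plus strand), Rpl26 (chr11:68901516-68901585, plus strand) and Rps27l (chr9:66946036-66946105, plus strand). Rpl22 (chr4:152325676-152325745, plus strand) holds neither within this stretch.
Rps6: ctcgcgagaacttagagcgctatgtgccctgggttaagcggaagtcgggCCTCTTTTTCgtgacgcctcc
Rps18: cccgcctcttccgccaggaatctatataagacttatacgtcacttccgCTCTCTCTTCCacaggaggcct
Rps21: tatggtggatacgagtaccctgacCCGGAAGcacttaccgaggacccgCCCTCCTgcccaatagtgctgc
Rps27: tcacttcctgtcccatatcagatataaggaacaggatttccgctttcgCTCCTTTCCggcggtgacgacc
Rpl19: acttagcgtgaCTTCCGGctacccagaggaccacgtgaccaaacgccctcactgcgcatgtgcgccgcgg
Rpl26: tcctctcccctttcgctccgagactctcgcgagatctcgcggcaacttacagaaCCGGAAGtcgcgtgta
Rps27l: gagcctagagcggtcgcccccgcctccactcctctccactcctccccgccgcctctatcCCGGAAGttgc
Rpl22: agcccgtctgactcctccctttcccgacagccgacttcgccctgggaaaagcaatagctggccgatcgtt
These are matches of letters near annotated starts, and the annotated start can differ from the one used in these cells.

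The share of ribosomal protein RNA in the nuclei differed between cell classes. Summed over the 80 genes, it was 962, 980, 1535, 1436 and 924 CPM in excitatory neurons and 996, 1036, 1621, 1567 and 963 CPM in inhibitory neurons. Oligodendrocyte precursors held 1379, 1282, 1854, 1880 and 1340 CPM, oligodendrocytes 1813, 1521, 2346, 1952 and 1561 CPM, and astrocytes 2192, 1965, 2974, 2699 and 1956 CPM. Microglia were highest in each library, at 2837, 3979, 4546, 4781 and 3243 CPM. In each of these 6 classes the astrocyte and neuron MAGL-KO libraries lay above the other 3. That order did not hold in vascular cells, which had 25 to 70 nuclei per library and held 1760, 1430, 2131, 1656 and 1383 CPM, the neuron label below wild type. Choroid plexus cells, 6 to 13 nuclei, held 1535, 1693, 3011, 1904 and 1109 CPM, with both libraries above the other 3. Among excitatory neurons, dentate granule neurons held 1150 to 1888 CPM, CA1 pyramidal neurons 876 to 1416 CPM and CA3 pyramidal neurons 743 to 1257 CPM, and that order held within each library. Their depth had the reverse order within each library, with medians of 13176, 22070 and 36344 UMIs in wild type. The sum falls with depth, as given below, and the part of depth in this order was not tested. The sums of excitatory and inhibitory neurons rest on 22586 or more UMIs of the 80 genes per library, those of CA1 neurons on 15137 to 22315, those of CA3 neurons on 10553 to 17392, those of microglia on 270 to 1173 and those of astrocytes on 382 to 883.

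**Figure D1:**
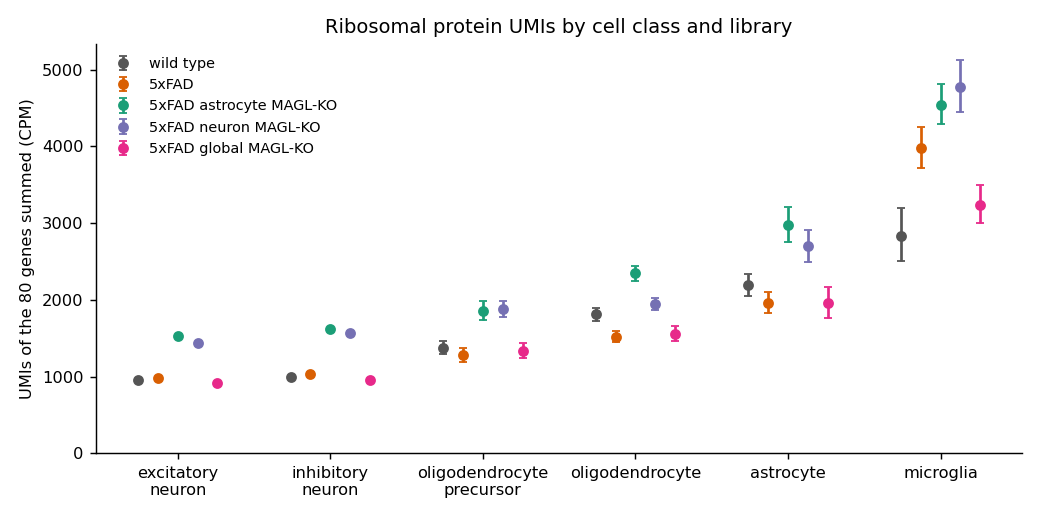
Summed level of the 80 ribosomal protein genes (y axis, CPM) in 6 cell classes (x axis), 1 point per library, with exact 95% Poisson intervals of counting error. The astrocyte and neuron MAGL-KO libraries lie above the other 3 in each of the 6 classes plotted, and microglia reach 4781 CPM.

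In excitatory neurons of all 5 libraries the summed level was lower in deeper nuclei. In the wild type library it went from 1927 CPM in nuclei under 5000 UMIs to 1489, 1111, 886 and 811 CPM in nuclei of 5000 to 10000, 10000 to 20000, 20000 to 40000 and 40000 or more UMIs. The library labelled astrocyte MAGL-KO went from 3712 to 2282, 1615, 1304 and 1265 CPM, and the one labelled neuron MAGL-KO from 3498 to 2319, 1680, 1308 and 1230 CPM. In each of these 5 depth ranges both libraries lay above the other 3, with counting intervals that did not overlap. The gap was widest under 5000 UMIs, where the other 3 libraries held 1437 to 1927 CPM. Inhibitory neurons did not show this order in every library: with the global MAGL-KO label the sum was 1201 CPM under 5000 UMIs and 1486 CPM at 5000 to 10000 UMIs. Depth also differs between classes: median UMIs in the wild type library were 16876 in excitatory neurons, 4066.5 in astrocytes, 2545.5 in oligodendrocytes and 2146 in microglia.

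**Figure D2:**
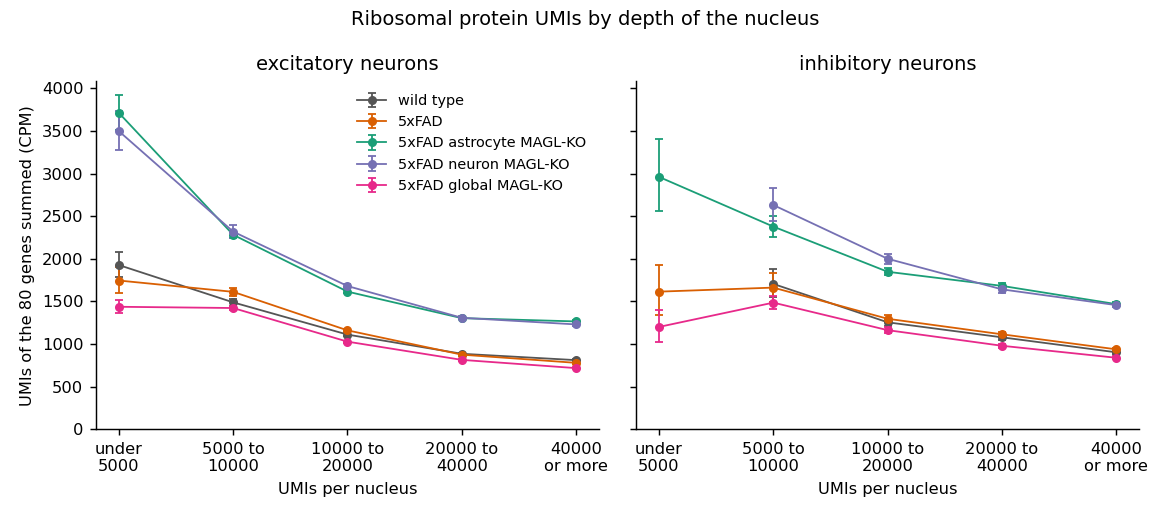
Summed CPM of the 80 genes (y axis) in nuclei of 5 depth ranges (x axis, UMIs per nucleus) in excitatory and inhibitory neurons, 1 line per library with 95% Poisson intervals, for ranges with at least 20 nuclei. Excitatory neurons of all libraries descend with depth, and the astrocyte and neuron MAGL-KO lines stay above the others, for example at 1265 and 1230 CPM against at most 811 CPM in nuclei of 40000 or more UMIs.

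The comparison of 5xFAD with wild type asks whether the amyloid transgenes go with a changed level of these genes. In excitatory neurons the differences were small, with a summed log2 ratio of 0.03 [0.01, 0.04]. The median log2 ratio of the 78 genes with at least 10 UMIs was 0.02, beside 0.00 for all 22960 genes with as many UMIs, and none of the 78 passed 0.25 on the log2 scale of CPM plus a pseudocount of 5 in either direction, where 0.658% of all genes passed it upward and 0.753% downward. With nuclei thinned to 1000 UMIs 9 passed upward and 9 downward, where 10.1% and 11.8% of all genes did. Rpl10, a large-subunit protein near the peptidyl transferase centre encoded on the X chromosome, had the highest ratio. It went from 11.3 CPM in wild type to 14.1 CPM in 5xFAD, a log2 ratio of 0.33 [0.19, 0.46] without the pseudocount. Rps27, a small-subunit zinc-finger protein, had the lowest, from 11.6 to 9.35 CPM (-0.31 [-0.45, -0.16]). Rpl8, Rps3, Rps6 and Rpl9 followed Rpl10 with log2 ratios of 0.16 to 0.22 without the pseudocount, and Rpl41, Rps26, Rpl19 and Rpl31 were next to Rps27 at -0.13 to -0.11. Within excitatory neurons the summed ratio was 0.07 [0.04, 0.09] in dentate granule neurons, 0.04 [0.01, 0.07] in CA1 and -0.10 [-0.13, -0.06] in CA3 pyramidal neurons.

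In microglia, oligodendrocytes and astrocytes the ratios of 5xFAD to wild type lay further from 0 than in neurons, a difference that was not tested. Oligodendrocyte precursors held 1379 CPM [1294, 1468] in wild type and 1282 CPM [1193, 1375] in 5xFAD, with intervals that overlapped. The summed level in microglia was higher in 5xFAD than in wild type by 0.49 [0.29, 0.69] on the log2 scale, and 48 of 76 genes passed 0.25 upward and 11 downward, where 42.8% and 34.7% of all genes, and 44.9% and 37.2% of other genes under 10 kb with at least 5 CPM, did so in these few nuclei. In oligodendrocytes it was lower, by -0.25 [-0.35, -0.16], with 8 of 77 genes past 0.25 upward and 28 downward, against 21.9% and 27.4% of all genes and 20.9% and 34.4% of such short genes, so that the downward share was near that of short genes. Inhibitory neuron markers, 7 genes summed, were at 3247 CPM in wild type and 3781 CPM in 5xFAD oligodendrocytes, and excitatory markers at 241 and 414 CPM. Astrocytes stood at -0.16 [-0.29, -0.02], while excitatory neuron markers in them were at 2281 and 2934 CPM, choroid plexus markers at 509 and 247 CPM and endothelial markers at 94.3 and 20.8 CPM. The microglia of the 5xFAD library carried Apoe, a lipid carrier raised in plaque-associated microglia, at 7094 CPM and those of wild type at 63.0 CPM, and their mitochondrial share was 0.268% and 0.134%. Markers of excitatory neurons, 7 genes summed, were at 1091 and 1429 CPM in these microglia. The part of these markers in the results was not tested.

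The libraries labelled astrocyte MAGL-KO and neuron MAGL-KO had higher levels across nearly the whole set. In excitatory neurons the median log2 ratio against 5xFAD was 0.49 for the astrocyte label and 0.41 for the neuron label, and both comparisons share the 5xFAD library. Above 0.25 lay 75 of 78 genes in the former and 73 of 78 in the latter, and none lay below -0.25. These counts depend on the pseudocount: with 20 CPM in place of 5 they were 50 and 29, where 3.41% and 3.43% of all genes passed. With 5 CPM, of all genes, 14.2% and 13.1% passed upward and 1.27% and 1.76% downward. These genes are short, with a median span of 3328.5 bases and 76 of 80 under 10 kb, against a median of 19627.5 bases for the genes measured in these neurons. Among the other 1497 genes under 10 kb with a mean of at least 5 CPM, 56.3% and 52.2% passed upward, with medians of 0.28 and 0.26. The 8860 longer genes of such levels had medians of 0.10 and 0.08. Other short genes were thus also higher in these libraries, with medians below those of the ribosomal protein genes. Both libraries exceeded each of the other 3 in 77 of 78 genes, and 46.7% of all genes had that order.

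**Figure D3:**
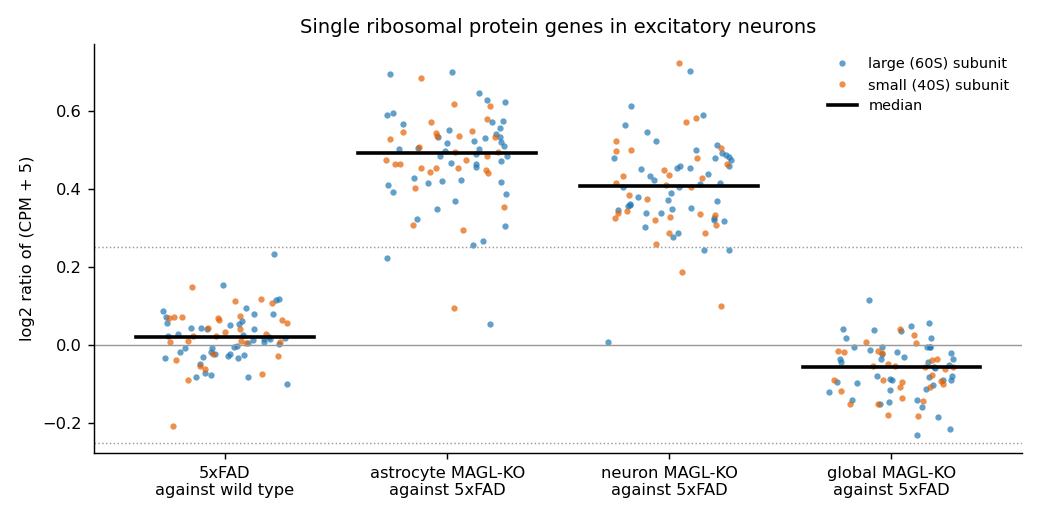
Log2 ratios of CPM plus 5 in excitatory neurons (y axis) for 78 ribosomal protein genes, 1 point each, coloured by subunit, in 4 comparisons of 2 libraries (x axis). Black lines are medians (0.02, 0.49, 0.41 and -0.06) and dotted lines mark 0.25 in both directions.

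Large and small subunit genes shifted alike. For the astrocyte label the medians were 0.50 over 47 large-subunit genes and 0.48 over 31 small-subunit genes, and for the neuron label 0.41 and 0.41. Rpl26, a large-subunit protein at chr11:68901583-68906989 (GRCm38), was among the highest in both. It was at 8.74, 8.92, 17.6, 17.6 and 10.1 CPM, so that its 2 high libraries were well apart from the other 3, with log2 ratios without pseudocount of 0.98 [0.84, 1.12] and 0.98 [0.84, 1.13]. Rps27, at chr3:90212522-90213651, was at 11.6, 9.35, 15.8, 18.7 and 8.39 CPM, with 0.75 [0.61, 0.90] and 1.00 [0.86, 1.14]. Ranked with the pseudocount, the highest ratios for the astrocyte label beside Rpl26 included those of Rpl19 (0.87 [0.76, 0.98]), Rpl8 (0.84 [0.71, 0.96]) and Rpl13 (0.73 [0.64, 0.82]). For the neuron label they were those of Rpl37, Rpl10a and Rps28, at 0.76 to 0.85 without the pseudocount.

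The lowest ratios with the pseudocount included those of Rps27l, Rpl22, Rps13, Rpl30 and Rps20. Rps27l, a paralog of Rps27 known as a p53 target, was at 2.08, 2.44, 2.94, 2.97 and 2.34 CPM, and its intervals against 5xFAD reached from -0.03 to 0.58 and from -0.03 to 0.60. Without the pseudocount its ratios were 0.27 and 0.28, close to those of Rpl30 and Rps20 below. Rpl22, whose loss mice survive, was at 8.06, 7.86, 10.3, 10.2 and 8.37 CPM (0.40 [0.23, 0.56] and 0.38 [0.21, 0.55]). Rps13 had 0.37 [0.26, 0.47] and 0.32 [0.21, 0.43], Rpl30 0.27 [0.17, 0.37] for the astrocyte label, and Rps20 0.24 [0.12, 0.36] for the neuron label. Rpl3l, the striated-muscle paralog of Rpl3, had 12 to 25 UMIs per library, too few to place. Rpl10l, a testis paralog of Rpl10, had at most 2 UMIs per library in excitatory neurons and Rpl39l at most 1, so neither was compared.

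Apart from Rps27l, Rpl3l, Rpl10l and Rpl39l above, the genes picked for their roles were higher in both libraries. Rpsa, the laminin-receptor homologue of the 40S subunit, was at 15.4, 17.1, 27.0, 24.7 and 16.2 CPM. Rplp0, the base of the stalk that recruits translation factors, was at 3.90, 4.46, 8.26, 6.82 and 4.27 CPM. Its log2 ratios were 0.89 [0.69, 1.10] and 0.61 [0.39, 0.83]. Of its stalk partners, Rplp1 had ratios of 0.59 [0.49, 0.68] and 0.58 [0.48, 0.68] and Rplp2 of 0.53 [0.39, 0.66] and 0.59 [0.46, 0.73]. Rps6, the substrate of S6 kinase, was at 7.91, 9.02, 14.3, 14.3 and 8.69 CPM. Rps4x, the X-linked 40S protein, had a higher ratio for the astrocyte label (0.82 [0.66, 0.97]) than for the neuron label (0.45 [0.28, 0.62]), and Rpl39, at the exit tunnel, showed the opposite order (0.64 [0.40, 0.87] and 1.06 [0.84, 1.29]). Rpl3, Rpl10, Rpl41 and Rps27a, the last made as a fusion with ubiquitin, had ratios of 0.44 to 0.68 without the pseudocount.

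Other lists were read against the shares of all genes and of other short genes given above; differences between lists were not tested. Of the 8 ribosomal protein genes outside the symbol rule, 6 passed 0.25 upward for each label, with medians of 0.38 and 0.35. Of 26 translation factors 10 passed for each, with medians of 0.21 and 0.18. Eef1a1, the elongation factor that delivers aminoacyl-tRNA and itself a TOP gene, went from 38.9 to 67.1 CPM for the astrocyte label (0.72 with the pseudocount), and Tpt1, another TOP gene, from 11.9 to 20.8 CPM (0.61), while the cap-binding Eif4e was at 79.0 and 77.2 CPM. Ribosome biogenesis factors, 28 genes, had medians of 0.21 and 0.21 with 10 and 8 past 0.25, and Nop58, a snoRNP core protein, was at 40.0 and 41.1 CPM for the astrocyte label. The 16 genes of mTOR signalling had medians of 0.11 and 0.12. Mitochondrial ribosomal proteins (42 and 30 of 78 past 0.25, medians 0.26 and 0.21) and nuclear-encoded respiratory chain genes (54 and 47 of 72, medians 0.37 and 0.32) are 2 further lists. The shares of mitochondrial ribosomal proteins, translation factors and biogenesis factors past 0.25 lay below those of other short genes, and all lay above those of all genes. The share of all genes covers 22960 genes, many of them under 5 CPM, whose ratios the pseudocount holds near 0. Lying above it therefore says little about a list.

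Within the set, shorter genes had the larger ratios for the neuron label. Without the pseudocount, the median over 77 genes was 0.57 for that label and 0.66 for the astrocyte label. For the neuron label it was 0.66 in the 26 shortest of 77 genes, 0.58 in the middle 26 and 0.48 in the 25 longest (Spearman rho -0.44 across genes). For the astrocyte label these medians, also without the pseudocount, were 0.68, 0.65 and 0.60 (rho -0.18). Genes are not independent replicates, so these are descriptions.

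The same direction held in inhibitory neurons, where 70 and 71 of 78 genes passed 0.25 upward against 17.7% and 15.9% of all genes and 59.0% and 56.7% of other genes under 10 kb with at least 5 CPM. In oligodendrocytes 59 and 40 of 77 genes did, against 35.8% and 33.5% of all genes and 49.7% and 46.1% of such short genes. In astrocytes 49 and 46 of 76 did, against 41.1% and 39.0% of all genes and 51.3% and 52.2% of short genes. Markers of excitatory neurons, 7 genes summed, stood at 2281, 2934, 1200, 1759 and 2960 CPM in the astrocyte class, lowest in these 2 libraries, and their part in the result was not tested. In microglia the shift was smaller: 31 and 38 of 76 genes passed upward and 11 and 15 downward, against 36.5% and 38.2% of all genes upward and 28.7% and 34.4% downward. Of other short genes 47.2% and 50.8% passed upward, slightly larger shares than among the ribosomal protein genes. The summed log2 ratios were 0.19 [0.06, 0.32] and 0.27 [0.12, 0.41].

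Several measures moved with these 2 libraries. In excitatory neurons 7 long noncoding RNAs of the nucleus summed to 28454, 26569, 38780, 38689 and 29942 CPM. Most of this was Malat1, at 20751 CPM in 5xFAD and at 32233 and 32396 CPM in these libraries (0.64 in both), whereas the list had medians of 0.18 and 0.12, with 2 genes past 0.25 for each label. Of 18 snoRNA host genes 8 and 11 passed upward, with medians of 0.24 and 0.26. The pooled mitochondrial share was 0.0197% and 0.0207% in them and 0.0120% to 0.0171% in the other 3. In their excitatory neurons, 8 microglial markers summed to 62.7 and 60.7 CPM, against 41.4 to 43.2 CPM elsewhere, with no marker at 0 in any library, whereas 7 astrocyte markers (209 and 229 CPM against 224 to 227) and 7 oligodendrocyte markers (194 and 202 against 184 to 191 CPM) differed less. Each list counts the same genes in all 5 libraries, and their part in the result was not tested. Of the nuclei with either Xist or Y-linked UMIs but not both, 58.0%, 41.3%, 58.3%, 82.0% and 58.0% had Xist, so the libraries differ in their mix of female and male nuclei. Nuclei with both made up 15.1%, 11.4%, 11.6%, 10.6% and 13.6% of the nuclei used. Within excitatory nuclei that had Xist and no Y-linked UMIs the medians were 0.52 and 0.43, and within those with Y-linked and no Xist UMIs 0.45 and 0.38. Scaling by median-of-ratios size factors lowered the medians to 0.31 and 0.27, with 60 and 41 of 78 genes above 0.25 (4.62% and 5.47% of all genes), and nearly centred all genes (0.00 for both).

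The library labelled global MAGL-KO lacked the higher levels. Its median log2 ratio against 5xFAD in excitatory neurons was -0.06, beside 0.01 for all genes, and no gene passed 0.25 in either direction (2.26% of all genes upward, 1.05% downward). With thinned nuclei 11 passed downward and 5 upward, where 8.15% and 14.3% of all genes did. The intervals of 25 of 78 genes lay below 0 (10.3% of all genes), and 1, that of Rpl26, lay above (19.5%). Rpl24, a large-subunit protein at the subunit interface, was lowest: it went from 13.6 to 10.8 CPM (-0.32 [-0.46, -0.19]). Rpl10, high in 5xFAD, was at 11.5 CPM, close to the 11.3 CPM of wild type. In microglia the sum was lower than in 5xFAD by -0.30 [-0.44, -0.15], with 42 of 76 genes below -0.25 (34.8% of all genes, 40.4% of other short genes).

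Open chromatin at the promoters did not follow the RNA. Peaks within 1 kb of the gene start were listed for 76 of 80 genes in each library, covering 68457 to 69464 bases, and 54.7% to 56.5% of all genes had such a peak. In excitatory neurons the summed cut sites of these peaks came to 2779, 2835, 2743, 2697 and 2633 CPM of all cut sites in peaks. Their mean density was 40.5, 40.8, 40.1, 39.0 and 38.0 CPM per kb. For the astrocyte label the median log2 ratio against 5xFAD was -0.04, beside -0.0027 over all genes with a peak in the 5 libraries, with 0 genes above 0.25 (6.31% of those genes) and 2 below -0.25 (4.69%). For the neuron label it was -0.07, beside -0.06 over all, with 0 above (4.85%) and 3 below (8.07%). For the global label it was -0.10, beside -0.08 over all, where the RNA median was -0.06. For 5xFAD against wild type it was 0.02, beside 0.02 over all, where the RNA median was 0.02. In these 2 comparisons promoters and RNA had the same sign. At Rpl26 the values were 31.2, 31.7, 30.1, 27.7 and 27.8 CPM. The peaks were listed separately in each library. Oligodendrocytes had more of their cut sites at these promoters, 4765 to 5089 CPM in the 5 libraries against 2633 to 2835 CPM in excitatory neurons, with no overlap. The share of cut sites at the promoters of all genes was not computed by class, so this gap may not be particular to these genes.

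**Figure D4:**
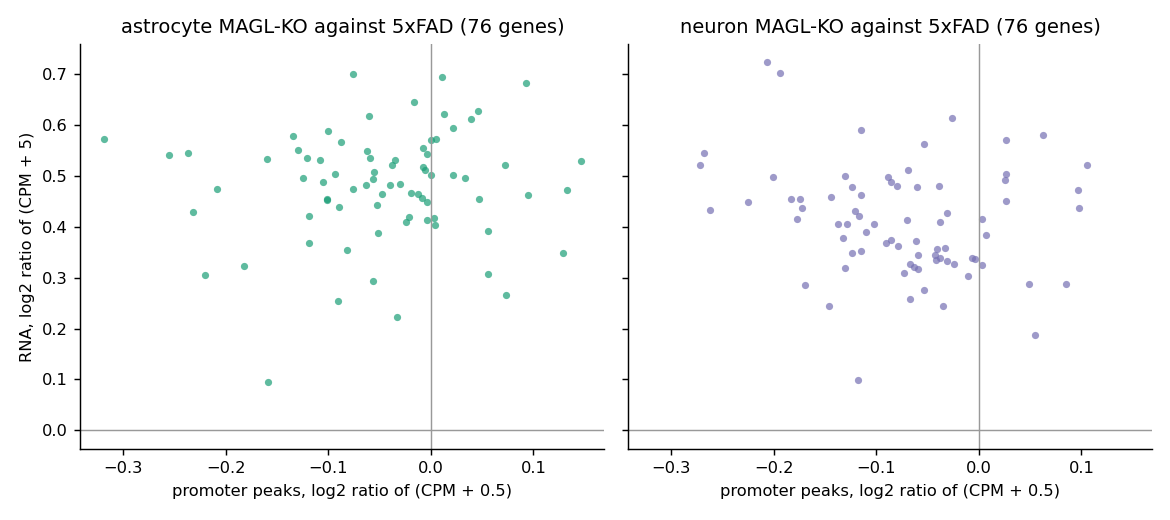
Log2 ratio of RNA (y axis, CPM plus 5) against log2 ratio of cut sites in promoter peaks (x axis, CPM plus 0.5) in excitatory neurons, 1 point for each of 76 genes, for the astrocyte and neuron labels against 5xFAD. All points lie above 0 for RNA, and the promoter ratios scatter about medians of -0.04 and -0.07.

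Differences between cell classes could be tested, because each of the 5 libraries holds every class. UMIs were summed per class and library, and edgeR's quasi-likelihood test was run with the library as a block over 10891 genes, of which 75 are in the set. The other 5 (Rpl10l, Rpl3l, Rpl35, Rps27l and Rpl39l) did not pass the filter on low counts, which asks for a minimum CPM in enough of the class sums. Rpl35 had 3352 UMIs in all nuclei, more than the 3256 of Rplp0, which was tested. A gene low in neurons could thus enter only through classes where it is higher. Adjusted p-values are Benjamini-Hochberg values over all genes tested, and standard errors are approximate, from the fold change and its F statistic. The block takes out differences between libraries, so p-values measure how much class differences vary over these 5 libraries, with a single spread shared by all classes. The libraries differ in genotype and are not replicates of a single condition, and the labels do not say which animals they came from.

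Microglia had the highest levels. Of 75 genes 65 were higher than in excitatory neurons at an adjusted p of 0.05. None was lower, at an unadjusted p under 0.05 either or by DESeq2, whereas without the filter on low counts 44 of 80 were higher and 1 lower (12.4% and 22.9% of all genes). Of all genes 28.9% were higher and 36.8% lower, and the median log2 fold change over the set was 1.05. Rpl10a, a protein at the base of the L1 stalk (chr17:28328471-28331033), stood out at 2.08 (SE 0.16, adjusted p = 1.06e-13, edgeR). It was at 116, 106, 136, 138 and 122 CPM in microglia and at 14.2, 13.8, 23.4, 23.3 and 13.5 CPM in excitatory neurons, with no overlap. Rpl18 (1.88, SE 0.22), Rps9 (1.87, SE 0.21), Rps29 (1.71, SE 0.24) and Rpl34 (1.63, SE 0.24) followed. These followers had 3171 to 4388 UMIs in excitatory neurons over the 5 libraries, fewer than the 6163 of Rpl10a. The limit of the filter applies to them: genes low in neurons entered through classes where they are higher. Their place near the top is therefore no result about them. Rps2, Rpl30, Rps14, Rps18 and Rpl26 rose least among those that passed, by 0.55 to 0.68. Rpl22 did not pass (-0.12, adjusted p = 0.818, edgeR), nor did Rpl3 (0.43, adjusted p = 0.121).

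In astrocytes 47 genes were higher and 1 lower (26.2% and 31.7% of all genes), with a median of 0.67. Rpl36a (1.44, SE 0.34) and Rplp0 (1.40, SE 0.34) had the largest values, followed by Rpl18, Rps21 and Rps23 at 1.19 to 1.32. Rpl36a and Rplp0 rest on 23 and 28 astrocyte UMIs over the 5 libraries. Genes low in neurons entered the test through classes where they are higher, so the lead of these genes is no result about them. The gene that fell was Rpl15 (-0.51, SE 0.21, adjusted p = 0.0400, edgeR), a call close to the threshold. No gene was called lower in astrocytes with library totals, with DESeq2, without the block, with no doublets removed, with at most 1% mitochondrial UMIs, or when the wild type or any of the 3 knockout libraries was left out. When each nucleus took the class of its highest marker score, 8 genes were called higher in astrocytes (16.9% of all genes).

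In oligodendrocytes 41 genes were higher and 1 lower (34.9% and 38.6% of all genes), with a median of 0.37. Rpl18 had the largest value (1.24, SE 0.13, adjusted p = 3.18e-10, edgeR), before Rpl11 (0.92), Rps21 (0.90), Rpl7a (0.75) and Rpl34 (0.71). The same limit of the filter holds for Rpl18, Rps21, Rpl7a and Rpl34, which are low in neurons, so their lead is no result about them. Rpl15 fell by 0.88 (SE 0.14).

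In inhibitory neurons and precursors calls went in both directions. In inhibitory neurons 4 genes were higher and 7 lower (25.6% and 29.1% of all genes), with a median of -0.01. Rpl11, a regulator of Mdm2 as well as a 60S protein, was higher by 0.50 (SE 0.06, adjusted p = 9.48e-09, edgeR), with Rpl30 at 0.24 and Rpl28 at 0.14, while Rpl15 (-0.24), Rpl5 (-0.22), Rps18 (-0.19), Rps15a (-0.19) and Rpl6 (-0.17) were lowest. The split depended on the setting. It was 15 higher and 1 lower with library totals (36.0% and 19.5% of all genes). With no doublets removed it was 8 and 2 (3724 and 3273 of 13590 genes), and with classes from the highest marker score 10 and 2 (3350 and 3048 of 12285 genes). Without a deep inhibitory cluster, a setting chosen after seeing the data, it was 10 and 3 (26.0% and 29.4%). In oligodendrocyte precursors 9 were higher and 6 lower (26.0% and 34.4%), with a median of 0.07, and 31 were higher with library totals and none lower (38.5% and 22.8% of all genes). With DESeq2, without the block, with no doublets removed and with classes from the highest marker score 1 was lower. Rpl13, at chr8:123102350-123105244, stood apart at 1.67 (SE 0.11, adjusted p = 2.16e-15, edgeR). It was at 129, 120, 99.5, 131 and 84.5 CPM in precursors and at 23.8, 24.3, 40.3, 36.1 and 23.9 CPM in excitatory neurons. Rpl36a, Rpl18, Rplp0 and Rpl10a followed at 0.72 to 0.96, and Rps3, Rpl15, Rpl38, Rpl4 and Rpl3 fell by 0.51 to 0.65. Here too Rpl36a and Rplp0 rest on few UMIs, 32 and 36 in precursors, and the same limit of the filter holds for them and for Rpl18.

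**Figure D5:**
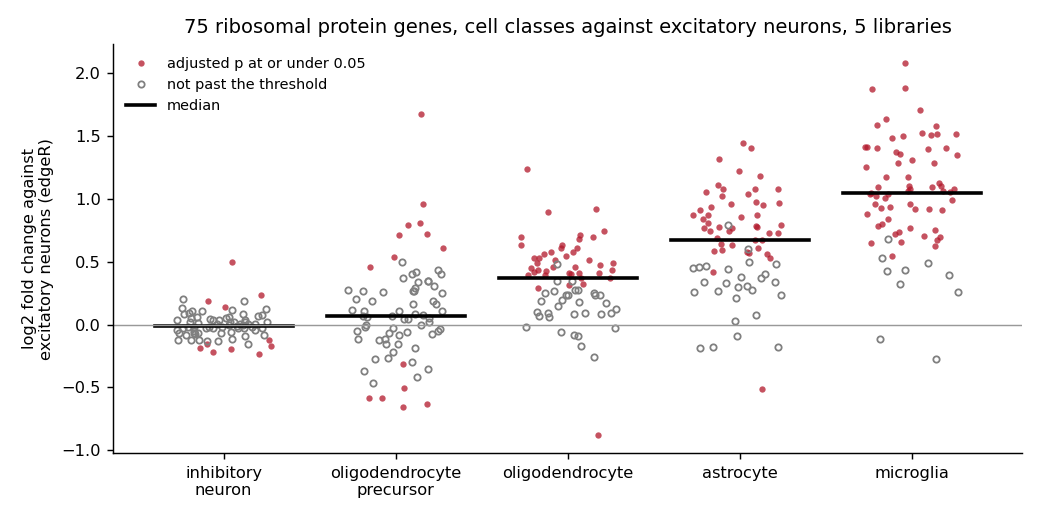
Log2 fold change against excitatory neurons (y axis, edgeR with the library as block, 5 libraries) for 75 ribosomal protein genes in 5 cell classes (x axis). Filled points passed an adjusted p of 0.05, open points did not, and black lines are medians, which run from -0.01 in inhibitory neurons to 1.05 in microglia.

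These contrasts moved with depth. In nuclei under 5000 UMIs of every class, a setting chosen after seeing the data, 21 of the genes could be tested. Over those 21 the median in microglia was 0.40, against 1.08 with all nuclei, and 5 were higher (Rpl10a, Rpl18, Rpl21, Rpl5 and Rps24) where 18 had been (31.2% of 5257 genes were higher and 37.7% lower). In astrocytes it was 0.02 against 0.59, with Rpl21 alone higher where 14 had been (26.0% of genes higher, 28.6% lower). In oligodendrocytes it turned to -0.33 from 0.29, with Rpl41, Rpl8 and Rplp1 lower (34.0% of genes, with 32.9% higher), where 11 had been higher. In precursors the median was -0.49 against -0.06, and 1 was higher and 2 lower (22.7% and 24.7% of genes). In inhibitory neurons it was -0.19 against -0.02 and none passed, with 2 lower at an unadjusted p under 0.05 (5.69% of genes higher and 9.17% lower by edgeR). The precursor contrast of Rpl13 (1.31, SE 0.25, adjusted p = 7.07e-06, edgeR) and the microglial contrast of Rpl10a (1.48, SE 0.28, adjusted p = 2.97e-06) passed there too. The shallow groups were small, 7 to 303 nuclei. Scaling by library totals in place of TMM shifted the median over all genes tested, -0.17 in microglia, to 0.56. In astrocytes it went to 0.34 from -0.09 and in oligodendrocytes to 0.28 from -0.04, and 73, 67 and 66 of the 75 were then called higher, where 48.7%, 40.0% and 47.3% of all genes were.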

How the data were processed

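Per the submitters' processing notes, Cell Ranger ARC 2.0.0 and Seurat were used with the mm10 build. The aligner settings, the annotation and the handling of intronic reads are not given in the sources used here. The deposited matrices hold raw counts by the authors: UMIs per gene and cut sites per peak, one matrix for each of 5 libraries. All 80 genes matched GENCODE vM21 (GRCm38). The genes, lists and tests were chosen with earlier results of these data known.

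Kept nuclei had 500 or more genes and mitochondrial UMIs of 5% or less. Scrublet's own threshold marked 0 to 2 nuclei in 4 libraries and 2305 in the fifth, so the highest-scoring 0.8% per 1000 nuclei were removed instead. Clustering used scanpy 1.11.5 (2000 variable genes, 40 components, 15 neighbours, Leiden resolution 1) without the 80 genes. A cluster took the class whose markers were raised in it, and stayed unnamed where fewer than 3 of them were raised, another class came close or led its top genes, or the cluster was shallow without its own markers.

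UMIs were summed per class and library, divided by the class total and scaled to CPM. Ratios use a pseudocount of 5 CPM unless given with an interval or said to be without it, and genes with at least 10 UMIs. With 1 library per group no test between groups was made. Class contrasts used edgeR 4.0.16 (TMM, filterByExpr, library block), with DESeq2 1.42.0 as an alternative. Data were also simulated from excitatory neuron levels, with 200 genes changed in microglia among 8183 genes tested. Of these, 89 of 100 changed by 1 log2 and 99 of 100 changed by 2 log2 were recovered, with 14 false calls (6.93% of calls). In the real microglia contrast 28.9% of genes were called higher and 36.8% lower, so the simulation does not cover scaling under so many changes. Named genes are the 5 highest and 5 lowest in each comparison (at least 100 UMIs over both libraries, or past the test), a set of genes picked by role, and 2 highest and 2 lowest of each other list, of which a selection is printed, and a few genes are not reported here. Intervals cover counting error only.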

Additional observations from a re-analysis of the deposited data

Results flagged for a closer look

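Within the same pair of libraries, 5xFAD and wild type, the summed ribosomal protein genes moved in opposite directions in different cell classes, with both counting intervals clear of 0. The log2 ratio was 0.49 [0.29, 0.69] in microglia, 0.0557 [0.03, 0.08] in inhibitory neurons and 0.0271 [0.01, 0.04] in excitatory neurons, but -0.25 [-0.35, -0.16] in oligodendrocytes and -0.16 [-0.29, -0.02] in astrocytes. The difference between classes was not tested, since there was 1 library per group. The microglial values rest on 43 nuclei of the wild type and 83 of the 5xFAD library.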

How the results depend on the processing

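Of the 56 median ratios recomputed in excitatory neurons, 28 moved by no more than the counting error of the summed genes, and the neuronal medians for the astrocyte and neuron labels were above 0 under every alternative run. Those that moved follow. For 5xFAD against wild type, it was 0.0372 with median-of-ratios size factors, 0.0455 with nuclei thinned to 1000 UMIs, 0.0542 in dentate granule nuclei, -0.0024 in nuclei with Y-linked UMIs. For astrocyte MAGL-KO against 5xFAD, it was 0.62 with a pseudocount of 1 CPM, 0.28 with a pseudocount of 20 CPM, 0.31 with median-of-ratios size factors, 0.46 with nuclei thinned to 1000 UMIs, 0.51 with the mean over nuclei, 0.39 in nuclei of 10000 to 30000 UMIs, 0.52 in nuclei with Xist UMIs, 0.45 in nuclei with Y-linked UMIs. For neuron MAGL-KO against 5xFAD, it was 0.52 with a pseudocount of 1 CPM, 0.22 with a pseudocount of 20 CPM, 0.27 with median-of-ratios size factors, 0.43 with nuclei thinned to 1000 UMIs, 0.44 with the mean over nuclei, 0.35 in dentate granule nuclei, 0.43 in nuclei with Xist UMIs, 0.38 in nuclei with Y-linked UMIs. For global MAGL-KO against 5xFAD, it was -0.0761 with a pseudocount of 1 CPM, -0.0311 with a pseudocount of 20 CPM, -0.0968 with median-of-ratios size factors, -0.0373 with nuclei thinned to 1000 UMIs, -0.0370 with the mean over nuclei, -0.10 in nuclei of 10000 to 30000 UMIs, -0.0414 in nuclei with Xist UMIs, -0.0960 in nuclei with Y-linked UMIs. Genes past 0.25 numbered 0 in both directions for 5xFAD against wild type, and 1 to 9 higher under 5 alternatives and 1 to 9 lower under 2. The 9 in each direction came with thinned nuclei, where 10.1% of all genes passed upward and 11.8% downward. Shares of all genes are not given for the smaller counts. For the global label they went from 0 to 5 higher under 1 and to 2 to 11 lower under 6. The 5 and 11 came with thinned nuclei, where 14.3% of all genes passed upward and 8.15% downward. For the neuron label 73 became 29 with a pseudocount of 20 CPM (3.43% of all genes) and 41 with size factors (5.47%).

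Class contrasts are counts of genes past an adjusted p of 0.05 in either direction, of 75 tested with all nuclei. Brackets give the numbers called higher and lower among all genes of the same fit. Those genes numbered 28122 without the filter and with DESeq2, 13590 with no doublets removed and 12285 with the marker score. They numbered 5257 in nuclei under 5000 UMIs, 10697 to 11747 with 1 library left out and 10891 otherwise. Inhibitory neuron calls numbered 11 (2784 and 3166), then 7 without the filter on low counts (4409 and 5139) and 1 without the replicate block (1874 and 1985). They were 3 with DESeq2 (3218 and 2585), 0 in nuclei under 5000 UMIs (299 and 482) and 6 to 8 with 1 library left out (2436 to 2780 and 2904 to 3075). Astrocyte calls numbered 48 (2855 and 3451), then 30 without the filter on low counts (3456 and 4776) and 25 without the replicate block (2765 and 3414). They were 8 with classes from the highest marker score (2080 and 1816) and 1 in nuclei under 5000 UMIs (1369 and 1504). With 1 library left out they were 34 to 48 (2582 to 2883 and 2887 to 3465). Microglia calls numbered 65 (3144 and 4009), then 5 in nuclei under 5000 UMIs (1642 and 1982) and 57 to 64 with 1 library left out (2837 to 3137 and 3701 to 4037). Oligodendrocyte calls numbered 42 (3803 and 4201), then 67 with library totals (5153 and 3200) and 27 without the filter on low counts (4582 and 6982). They were 3 in nuclei under 5000 UMIs (1732 and 1786) and 31 to 50 with 1 library left out (3611 to 3929 and 3667 to 4370). Oligodendrocyte precursor calls numbered 15, then 31 with library totals, 7 without the replicate block, 8 with no doublets removed, 3 in nuclei under 5000 UMIs and 10 to 13 with 1 library left out. The low inhibitory counts were 7 without the wild type library and 6 without the one labelled astrocyte MAGL-KO. At 0, inhibitory neurons had 2 genes at an unadjusted p under 0.05 (edgeR). The oligodendrocyte median over the same 21 genes turned from 0.29 to -0.33 in nuclei under 5000 UMIs. That setting and the removal of a deep inhibitory cluster, which took inhibitory calls from 4 higher and 7 lower to 10 and 3, were chosen after seeing the data. The cause of these changes was not tested. No paired analysis was possible for the genotype comparisons because each group has 1 library. In astrocytes and microglia the depth of few nuclei limits single genes.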
